A study of Saccharomyces cerevisiae with 2 samples.

Results

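Convergent neighbouring genes are genes that lie side by side and are transcribed toward each other, so that their 3′ ends face. In the compaction scores of the swr1Δ strain, 943 such pairs were found among 3509 pairs of neighbouring genes, and they held 1886 of the 4738 genes with a score. The members were found from systematic names alone, without use of the scores. A yeast name gives the chromosome, the arm, a number counted outward from the centromere, and W or C for the strand. Both genes of a pair had consecutive numbers on 1 arm, the left gene being W and the right gene C. Names with a suffix were left out, which leaves 4619 names of the required form. Because a gene has 1 facing neighbour at most, no gene was in more than 1 pair. The same naming rule gave 1707 tandem pairs, in which both genes point the same way, and 859 divergent pairs, in which the 5′ ends face.

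Micro-C maps chromosome folding at the level of single nucleosomes: fixed chromatin is digested by micrococcal nuclease, nearby ends are ligated, and the joined fragments are sequenced. The strain was swr1Δ in the W303 background, grown in YPD to mid-log phase at 30 °C and fixed with 3% formaldehyde. It lacks Swr1, the catalytic subunit of the SWR-C complex that deposits the histone variant H2A.Z, and the labels name 2 replicates of it. The authors deposited 1 score per gene for this strain, so the scores have no replicate error, no strain was compared with another, and no difference below was tested over replicates. How the score was computed, which end of the scale stands for more compact genes, and the depth behind each score are not given in the sources used here. The deleted gene SWR1 (YDR334W) is listed with a score of -2.13 and is in no convergent pair.

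In budding yeast, the space between 2 convergent genes holds the terminators of both and usually no promoter, whereas tandem and divergent neighbours are separated by at least 1 promoter. The boundaries of chromosome interaction domains commonly lie at promoters of active genes. Regions between convergent genes are also known as places where cohesin, the ring complex that holds sister chromatids together, accumulates along yeast chromosome arms. Among the 893 pairs with known positions, 836 had no other annotated feature between the genes and 57 had at least 1, of which 26 held a protein-coding gene and 22 a tRNA gene. The correlation of scores within the pair (Spearman's rho) was 0.135 in the former and 0.358 in the latter. The latter rests on 57 pairs, the split was made after the scores were seen, and the difference was not tested.

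The 1886 members had scores from -3.01 to 1.82, with a median of -0.0191 and quartiles of -0.307 and 0.249. Over all 4738 genes the median was -0.0394. Scores below 0 were found for 977 members (51.8%, 95% Wilson interval 49.5% to 54.1%), beside 53.8% of all genes. The 2733 genes with names of the same form but in no convergent pair had a median of -0.055, and 54.7% of them (52.8% to 56.6%) were below 0. These intervals take each gene as independent and do not include the error of the score itself. Scores below -1 were found for 80 members (4.24%, beside 5.32% of all genes) and scores above 1 for 38 members (2.01%, beside 1.98%). The W genes had a median of -0.0033 and the C genes one of -0.0244. Convergent members were thus close to all genes in level, and the description turns on how the scores within a pair relate.

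Within pairs, the scores were weakly alike. Over the 943 pairs, Spearman's rho between the W and the C gene was 0.147 and Pearson's r was 0.143. Both genes lay on the same side of the median of all genes in 516 pairs, with 234 pairs below and 282 pairs at or above it. That is 54.7% of the pairs (95% Wilson interval 51.5% to 57.9%), beside 52.9% of all 3509 neighbouring pairs. The genes of a pair come from the same libraries and share a neighbourhood, so the pairs are not independent points. The median absolute difference within a pair was 0.405, with quartiles of 0.206 and 0.708. Differences above 1 were found in 131 pairs (13.9%, beside 13.5% of all neighbouring pairs). The W gene had the higher score in 488 pairs (51.7%, beside 50.2% for the left gene of all neighbouring pairs), and the median of W minus C was 0.0303. The strand of a gene therefore told little of which gene of a pair scored higher.

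**Figure D1:**
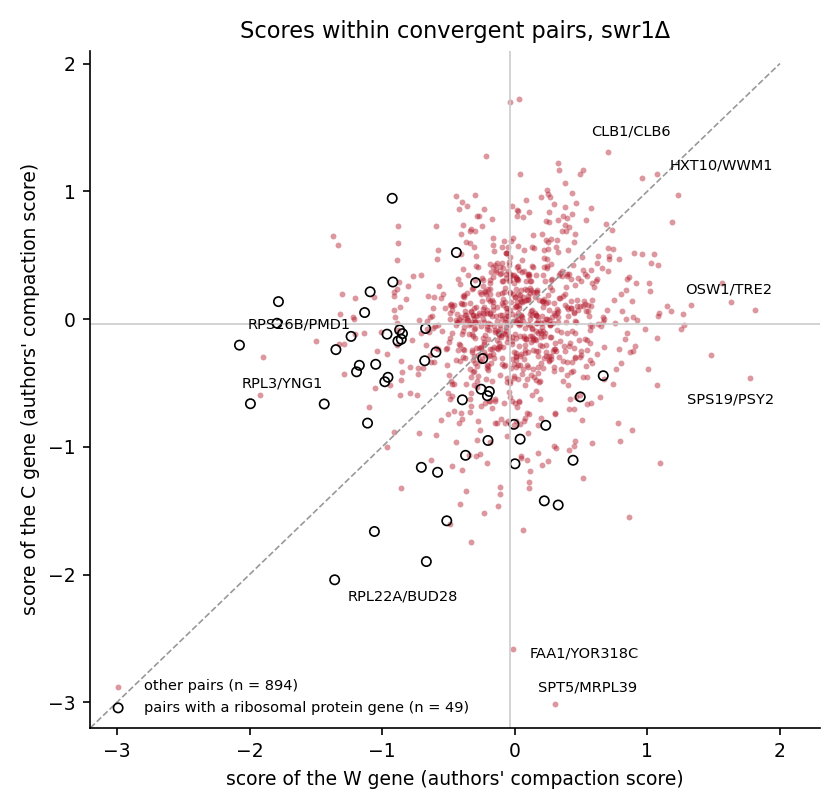
Scores of the W gene (x axis) and the C gene (y axis) of the 943 convergent pairs, 1 point per pair. Open circles are the 49 pairs that hold a cytosolic ribosomal protein gene, grey lines mark the median of all genes (-0.0394), and the dashed line marks equal scores. Most pairs form a round cloud (rho 0.147), and SPT5/MRPL39 and FAA1/YOR318C lie far below it.

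Tandem and divergent pairs had a lower rho than convergent pairs, and shares on the same side of the median near theirs. Spearman's coefficient was 0.0687 over tandem pairs and 0.104 over divergent pairs, lower than the convergent value by 0.0781 and 0.0425. Where both genes had at least 1000 bp, convergent minus tandem rho was 0.0831 and convergent minus divergent rho -0.0423. These differences in rho were not tested. On the same side of the median lay 52.0% of tandem and 52.7% of divergent pairs. The convergent share exceeded the tandem share by 2.76 percentage points (95% Newcombe interval -1.21 to 6.70) and the divergent share by 1.98 points (-2.62 to 6.58). Both intervals include 0, but they take the pairs and the classes as independent. They are therefore a description and do not test the pair classes against each other. The median absolute difference was 0.441 in tandem pairs and 0.399 in divergent pairs. Most genes of a convergent pair also belong to a tandem or divergent pair on their other side, so the classes share genes. For genes 1 step further apart, with numbers that differ by 2 and the W gene still on the left, rho was 8.39e-05 over 840 pairs and 50.1% lay on the same side. For numbers that differ by 3, rho was 0.0187 over 870 pairs and the share was 48.9%. The likeness between facing neighbours was thus not seen for genes 2 or 3 numbers apart in the same orientation. Tandem and divergent pairs also had their highest rho at neighbours. At number differences of 2 and 3, their same-side shares were 50.1% and 50.4% (tandem) and 52.8% and 52.0% (divergent). The divergent share was thus about the same at each number difference.

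**Figure D2:**
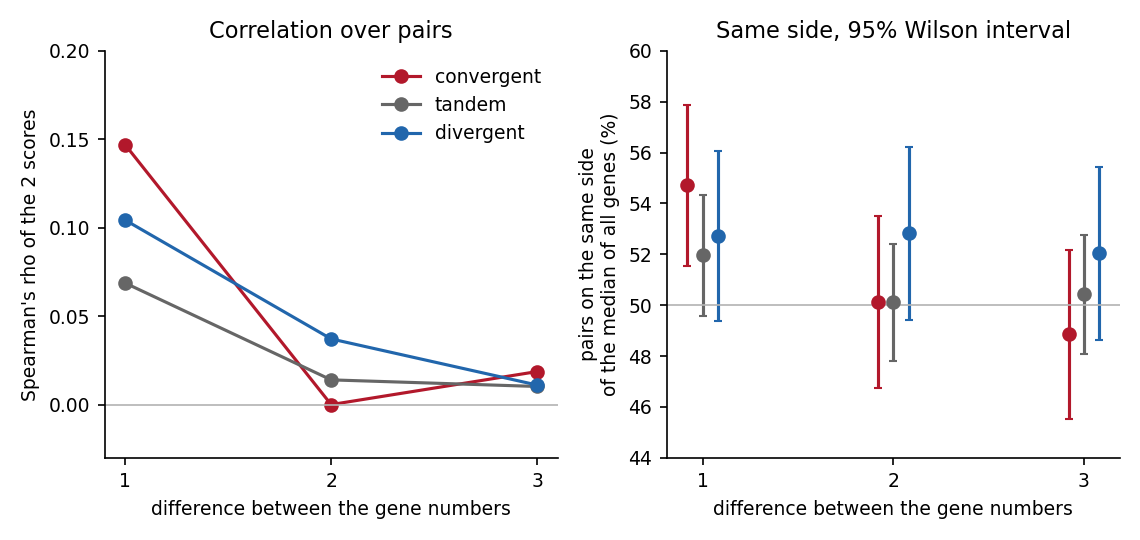
Left, Spearman's rho between the scores of both genes against the difference of their numbers, for convergent, tandem and divergent orientation. Right, the share of pairs on the same side of the median of all genes (%), with 95% Wilson intervals. In each class rho is highest at a number difference of 1, where it is 0.147, 0.0687 and 0.104, while the intervals of the shares overlap.

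The likeness could be read gene by gene. The partners of the 38 members with a score above 1 had a median of 0.122, and 10 of them (26.3%, 95% Wilson interval 15.0% to 42.0%) were below 0, beside 53.8% of all genes. The partners of the 80 members below -1 had a median of -0.154, and 49 of them (61.3%, 50.3% to 71.2%) were below 0. In pairs without cytosolic ribosomal protein genes, the latter became 54 members with a partner median of -0.109 and 55.6% below 0. For members between -0.5 and 0, and between 0 and 0.5, the partner medians were -0.0345 and 0.0121. Even beside extreme genes, partner scores thus stayed close to the middle of the distribution. Tandem and divergent neighbours were read in the same way. Of the neighbours of genes below -1, 61.5% were below 0 in tandem pairs and 52.0% in divergent pairs. Of the neighbours of genes above 1, these shares were 41.7% (36 neighbours) and 41.9% (43 neighbours), with intervals of 27.1% to 57.8% and 28.4% to 56.7% that overlap the convergent one. For genes between 0.5 and 1, 45.1% of the convergent partners were below 0, beside 47.4% of tandem and 35.8% of divergent neighbours.

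For 1411 members the neighbour on the 5′ side also had a score, which allowed both neighbours of the same gene to be compared. The score of the facing 3′ partner was the closer of both for 732 members (51.9%, 95% Wilson interval 49.3% to 54.5%). Many pairs of neighbours entered this count once from each of their genes. The members are thus not independent, the interval is a rough guide, and the rho values below share this limit. The median absolute difference was 0.413 to the 3′ partner and 0.427 to the 5′ neighbour. Where the 5′ neighbour was tandem (675 members), rho was 0.164 with the 3′ partner and 0.0552 with the 5′ neighbour. Where it was divergent (736 members), rho was 0.124 and 0.0962. A gene was therefore about as close in score to the neighbour it faces as to the neighbour behind it.

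Some pairs were low or high as a whole, and the 6 pairs with the lowest mean score were in 4 cases pairs with 1 ribosomal protein gene. The lowest mean belonged to RPL22A (YLR061W, -1.36), which encodes a protein of the large ribosomal subunit, and BUD28 (YLR062C, -2.04). No position was available for BUD28, or for YNL303W and YOR318C below. The gaps of their pairs are thus unknown, as is whether these genes overlap their partners and are scored from the same DNA. YHR140W (-1.06) and RPL42B (YHR141C, -1.66), another gene of the large subunit, followed. A snoRNA gene lies between them in the R64 assembly, the assembly that sacCer3 denotes, where their coding regions are 698 bp apart on chromosome VIII (381292 to 381989). RPL3 (YOR063W) at -1.99 faced YNG1 (YOR064C), a subunit of the NuA3 histone acetyltransferase, at -0.663. YNL303W (-0.667) faced RPS19B (YNL302C, -1.90), a gene of the small subunit. The other two low means came from a single gene of the pair. SPT5 (YML010W), an elongation factor of RNA polymerase II, had a score of 0.302. Its partner MRPL39 (YML009C), a protein of the mitochondrial ribosome, had -3.01, with 1 scored gene lower. FAA1 (YOR317W), a fatty acyl-CoA synthetase, had -0.0138 and YOR318C had -2.58.

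In the pairs with the highest mean, both genes were usually high. HXT10 (YFL011W), a hexose transporter, had a score of 1.07 and WWM1 (YFL010C) had 1.14, the highest mean of all pairs at 1.10. Their coding regions lie 1122 bp apart, and the midpoint of another protein-coding gene is annotated between their midpoints. They are thus neighbours by number, and whether that gene lies wholly in the gap was not analysed. VBA3 (YCL069W), a vacuolar basic amino acid transporter, had 1.23 and YCL068C had 0.972. FMP48 (YGR052W) had 0.957 and MCO32 (YGR053C) had 1.11. CLB1 (YGR108W) and CLB6 (YGR109C), which encode B-type cyclins of mitosis and of S phase, had 0.70 and 1.30. Their coding regions are separated by 307 bp on chromosome VII (705052 to 705358). DDI3 (YNL335W) had 1.19 and SNO2 (YNL334C) 0.757. OSW1 (YOR255W), which acts in spore wall assembly, had the highest score of any member at 1.82, with 5 scored genes higher. Its partner TRE2 (YOR256C), however, had 0.0724. Both genes were above 0.5 in 15 pairs (1.59%, beside 1.85% of all neighbouring pairs), and both were below -0.5 in 25 pairs (2.65%, beside 3.39%).

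The largest differences within a pair came in both directions. SPT5 stood above MRPL39 by 3.32, FAA1 above YOR318C by 2.57 and OAC1 (YKL120W, a mitochondrial oxaloacetate carrier, 0.861) above VPH2 (YKL119C, an assembly factor of the vacuolar ATPase, -1.55) by 2.41. SPS19 (YNL202W, a peroxisomal enzyme made in sporulation, 1.77) stood above PSY2 (YNL201C, a subunit of protein phosphatase 4, -0.463) by 2.23. OPI9 (YLR338W, 1.09) and YLR339C (-1.13) differed by 2.22, and ARO2 (YGL148W, chorismate synthase, 0.328) and RPL9A (YGL147C, -1.46) by 1.78. In the other direction, the C gene was higher in YGL177W (-1.37) and YGL176C (0.647) and in CGR1 (YGL029W, an rRNA processing factor, -1.33) and SCW11 (YGL028C, a cell wall protein, 0.583). No position was available for OPI9, YLR339C or YGL177W, so whether they overlap other genes is unknown. The remaining 4 of the 6 largest differences with a higher C gene each held a W gene for a ribosomal protein. These were RPS17A (-1.78) with NSE5 (0.136), RPS26B (-2.08) with PMD1 (-0.204), RPL25 (-0.924) with MDH2 (0.945), and RPL40A (-1.79) with SLN1 (-0.033). NSE5 belongs to the Smc5/6 complex, MDH2 encodes the cytosolic malate dehydrogenase and SLN1 an osmosensor.

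Other pairs had nearly equal scores far from the median. SRB6 (YBR253W, a Mediator subunit, -0.911) and TRS20 (YBR254C, a subunit of the TRAPP vesicle tethering complex, -0.884) differed by 0.0274, and their coding regions lie 100 bp apart on chromosome II (723636 to 723735). PER33 (YLR064W, -0.966) and ENV10 (YLR065C, -1.002) differed by 0.0361. YJL132W (-0.502) with AIM23 (YJL131C, -0.579) and LEE1 (YPL054W, -0.734) with the mannosyltransferase gene KTR6 (YPL053C, -0.593) were the next closest. Among high pairs, RCN2 (YOR220W, a calcineurin regulator, 0.737) and MCT1 (YOR221C, a mitochondrial enzyme of fatty acid synthesis, 0.697) differed by 0.0403. SPO12 (YHR152W, a regulator of mitotic exit, 0.692) and SPO16 (YHR153C, a factor of meiotic crossing over, 0.747) differed by 0.0559. HXT10 and WWM1 came next, followed by LRE1 (YCL051W, 0.702) and APA1 (YCL050C, 0.557). These pairs were chosen for their likeness by rule, so their small differences are a description.

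**Figure D3:**
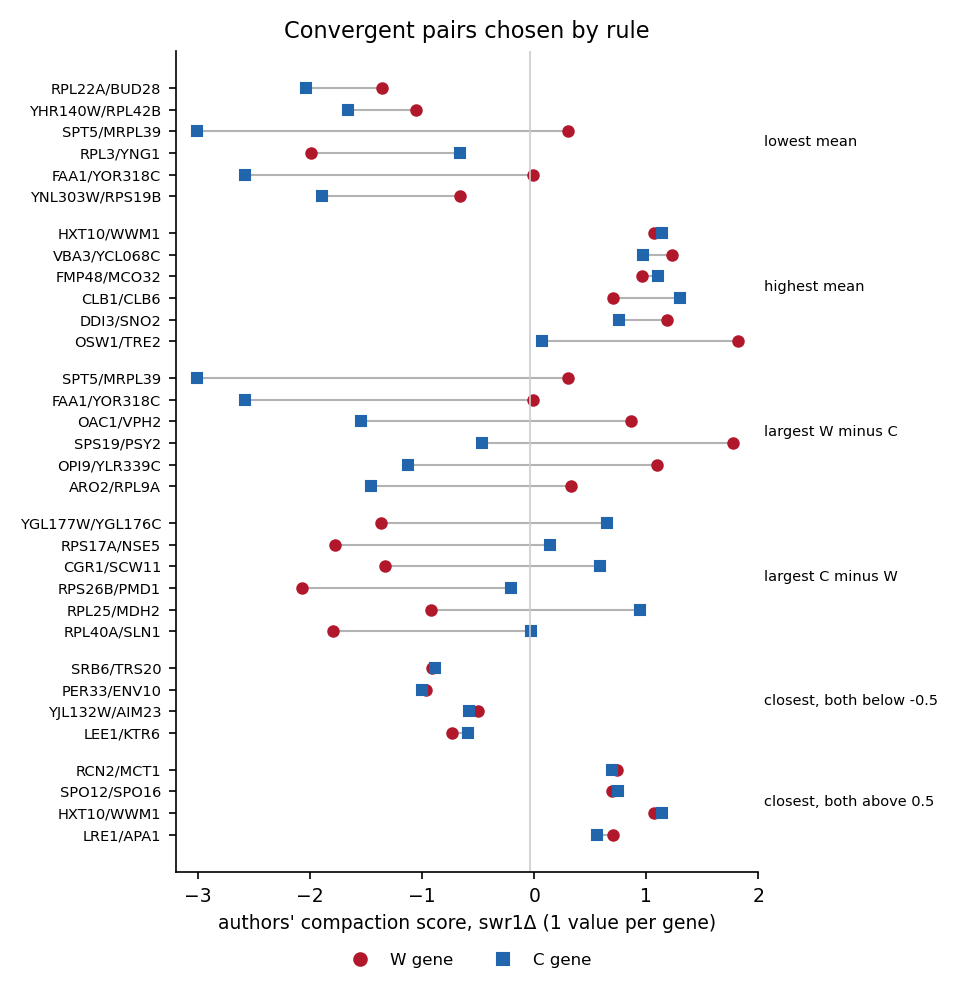
Scores of the W gene (circle) and the C gene (square) of each convergent pair named by rule, with a grey vertical line at the median of all genes. Pairs with the lowest mean include SPT5/MRPL39, whose genes lie 3.32 apart, whereas in HXT10/WWM1 both genes lie above 1.

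Cytosolic ribosomal proteins build the ribosome of the cytoplasm, and their genes are among the most highly transcribed of growing yeast. Among the gene groups described here, they stood furthest from the other members. Of 119 such genes with a score, 49 were members, each in a pair of its own, and their scores ran from -2.08 (RPS26B) to -0.296 (RPS27A) with a median of -0.956. All 49 were below 0, beside 53.8% of all genes. The 119 scored ribosomal protein genes together had a median of -0.951, so the low level was not particular to convergent members. Many of these genes have a near-identical second copy, and how reads that map to both copies were counted is not given, so their single scores are uncertain. The partners of these 49 genes had a median of -0.192, between -2.04 (BUD28) and 0.945 (MDH2). Of the 49 partners, 34 were below 0, beside 53.8% of all genes. The partner was lower than the ribosomal protein gene in 3 pairs, those of RPL22A with BUD28, RPS2 (-0.705) with NAB2 (-1.16), and RPL34B (-0.815) with RHR2 (-1.11). NAB2 encodes a poly(A) RNA-binding protein and RHR2 a glycerol phosphatase. For the 37 ribosomal protein members with both neighbours scored, the 3′ partners had a median of -0.159 and the 5′ neighbours one of -0.124. Of these neighbours, 26 (70.3%) and 24 (64.9%) were below 0, beside 53.8% of all genes. The neighbours ahead of and behind these ribosomal protein genes were therefore close to each other in level. Without the pairs of ribosomal protein genes, rho over the other 894 pairs was 0.128.

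The 25 genes for mitochondrial ribosomal proteins among the members, which serve the ribosome of the organelle, had a median of 0.0412 and 10 of them were below 0 (40.0%, beside 53.8% of all genes). Most lay between -0.32 and 0.52. The exceptions were MRPL39, RSM28 (-1.06) and MRPL6 (-0.955). Their partners had a median of -0.0615 and were lower than the listed gene in 17 of 25 pairs. Counted from both genes of all convergent pairs, a partner is lower as often as higher by construction. This small set was not tested against that. RPS3 (-0.595) faced MRPL22 (-0.259), and RPS27A faced RSM22 (0.285), so that a cytosolic and a mitochondrial ribosomal protein gene met in each of these pairs. Of the 11 translation factor genes, 9 were below 0 (81.8%, beside 53.8% of all genes), with a median of -0.388 against 0.04 for their partners. TEF1, which encodes elongation factor 1 alpha, was lowest at -1.32 and faced GRS2, a glycyl-tRNA synthetase gene, at 0.04. SUP45, the release factor that recognises stop codons, had -1.07 and faced MAK5 at -0.346. HCR1 was the highest at 0.666, and its partner PEX13, a peroxisomal import factor, had -0.406. GCD10 (-0.426), named after translational control, is known as a subunit of a tRNA methyltransferase. The 15 proteasome subunit genes had a median of -0.193, from -0.732 (PRE7) to 0.617 (RPN11), with 10 below 0 (66.7%, beside 53.8% of all genes), and their partners had a median of -0.11. Over all scored genes of each list, the median was 0.0327 for mitochondrial ribosomal protein, -0.448 for translation factor and -0.222 for proteasome genes. These levels were thus not particular to convergent members.

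Of the glycolytic genes, 6 were members and their scores spread widely. TDH3, the main glyceraldehyde-3-phosphate dehydrogenase gene, had -0.731 and faced the histidine permease gene HIP1 at -0.341. TDH2 had -0.281 and its partner MHO1 -0.643. HXK2 (-0.165) faced RTG2 (0.407), ENO1 (0.0111) faced COQ6 (0.325) and PYK2 (0.691) faced the DNA polymerase gene REV1 (-0.303). HXK1, a hexokinase gene, had 0.916, whereas its partner RPN12, a subunit of the proteasome, had -0.395. Both TDH genes thus had partners below the median of all genes, whereas PYK2 and HXK1 were high beside low partners.

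Factors that form or use RNA 3′ ends are of interest here because both terminators of a convergent pair lie in the shared gap. Of these genes, 9 were members, with a median of 0.0123. GLC7, the catalytic subunit of protein phosphatase 1 and a member of the cleavage and polyadenylation factor, was lowest at -1.22 and faced YER134C at 0.0189 across 3308 bp that hold 2 tRNA genes. SSU72, a phosphatase of the RNA polymerase II C-terminal domain, had -0.902 and faced POP1, a subunit of RNase P and RNase MRP, at 0.0124 across 1353 bp with an snRNA gene. RNA14 (-0.403) and RNA15 (0.196), partners in cleavage factor IA, faced ARG7 (0.129) and RIM8 (-0.127). SWD2 (0.0355), PFS2 (0.0123), YTH1 (0.174), RTT103 (0.0866) and RAI1 (-0.0752) all lay within 0.25 of 0. Among the genes of SWR-C itself, SWC3 had -0.152 beside MDM10 at -0.0835, and VPS71 had 0.104 beside CAT2 at 0.006. The shared ATPases RVB1 (-0.222) and RVB2 (0.15) faced SLY1 (-0.0923) and VMA11 (-0.157). YAF9, a subunit shared with the NuA4 acetyltransferase, had 0.805 and stood above its partner INP52 (-0.347) by 1.15. Of the cohesin genes, MCD1 (0.429), RAD61 (0.218), SCC2 (-0.186) and PDS5 (-0.201) were members.

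**Figure D4:**
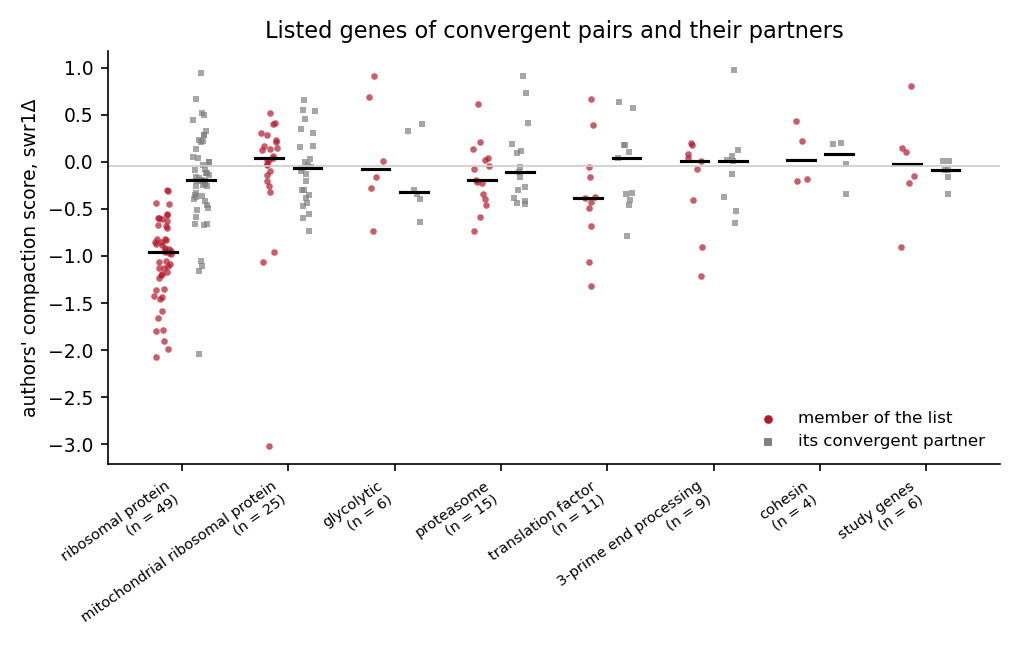
Scores of the convergent members in each gene list (circles) and of their convergent partners (squares), with black bars at the medians and a grey line at the median of all genes. All 49 cytosolic ribosomal protein genes lie below 0, with a median of -0.956 against -0.192 for their partners, whereas the medians of the other lists lie between -0.388 and 0.0412.

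Pairs also differed by the lengths of their genes and by the gap between them. The R64 gene table gave a position for both genes of 893 pairs. The coding regions were 229 bp apart at the median (quartiles 139 and 347 bp), against 411 bp in tandem and 503 bp in divergent pairs. A feature was counted as lying between the genes where its midpoint lay between their midpoints, so it could overlap a gene of the pair. The median absolute score difference was 0.45 where the shorter gene had 171 to 681 bp and 0.509 where it had 684 to 957 bp. It was 0.387 for 960 to 1335 bp and 0.307 for 1338 to 4257 bp. Differences above 1 went with this, at 21.9%, 15.6%, 8.93% and 4.52% of the pairs of these classes. MRPL39, which has the lowest score of any member, is annotated with 213 bp. The longer gene had the higher score in 444 of 893 pairs (49.7%), so length went with the size of the differences and not with their direction. Over the 893 pairs, rho between the length of the shorter gene and the absolute difference was -0.20.

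Over 893 pairs, rho between the gap and the absolute difference was -0.0029. By class, the median absolute difference was 0.489 at gaps of 1 to 100 bp (107 pairs) and 0.373 at gaps above 100 and up to 200 bp (271 pairs). The mean score of a pair was lower at longer gaps (rho -0.119). Members of pairs with a gap of at most 200 bp had a median of 0.0268 (385 pairs), and those of pairs with a longer gap one of -0.056 (508 pairs). Pairs with a ribosomal protein gene were more often at longer gaps. Of the 46 such pairs with positions, 41 had a gap above 200 bp, beside 508 of all 893 pairs. Without them rho was -0.0755, and where both genes had at least 1000 bp it was 0.00055 (412 pairs). In tandem and divergent pairs, rho between gap and mean score was 0.0825 and -0.111. In the 50 pairs with a gene that the table does not list, the median absolute difference was 0.662 and 34% of the pairs differed by more than 1. RPL22A/BUD28, which had the lowest mean, and YNL303W/RPS19B, FAA1/YOR318C, OPI9/YLR339C and YGL177W/YGL176C are of this kind, and whether such genes overlap their neighbours was not analysed here.

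**Figure D5:**
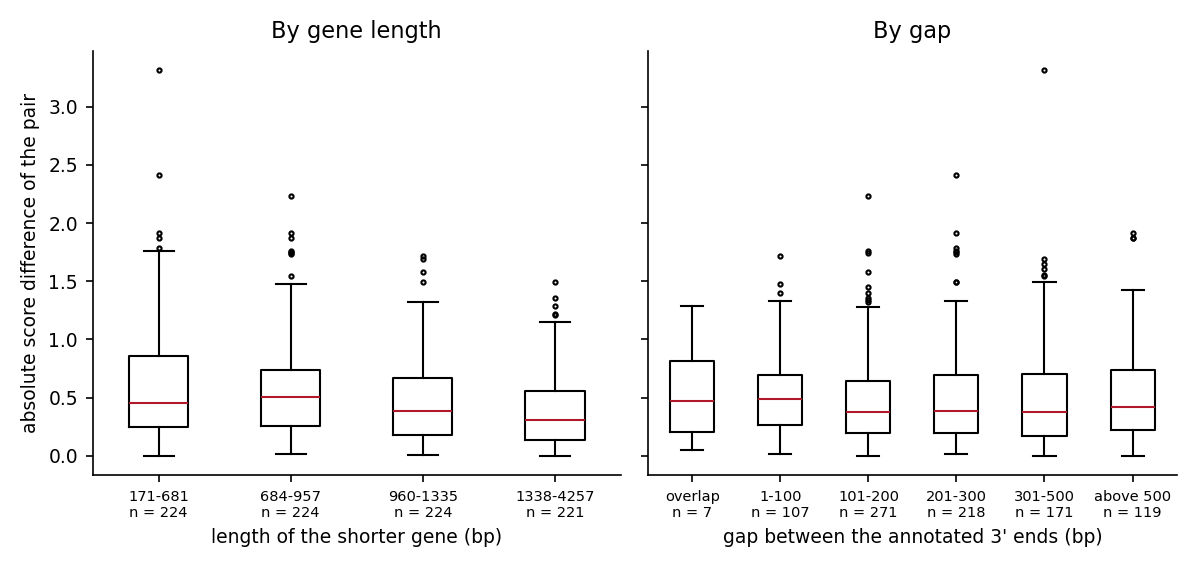
Absolute score difference within a convergent pair by the length of the shorter gene (left, bp) and by the gap between the annotated ends (right, bp), for the 893 pairs with positions. Boxes give the quartiles and the median (red), whiskers reach 1.5 times the box height, and points lie beyond. The median is 0.307 in the class with the longest genes against 0.45 and 0.509 in those with the shortest. By gap it is 0.467 for overlaps, 0.489 at 1 to 100 bp, and between 0.373 and 0.42 at longer gaps.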

How the data were processed

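Micro-C libraries of the swr1Δ strain were made by the authors, and the submitters' processing notes name CASAVA 1.8.2, Bowtie2 and the build sacCer3. The authors deposited 1 compaction score per gene for the strain, with values above and below 0. Its formula, its scale, filters and how replicates were combined are not given in the sources used here. The labels name 2 replicates, whereas the methods state 3, and which of them entered the score is unknown. The deposited counts of read pairs by distance carry no gene and were not used. The score table held no further column of values, and the depth behind a score is unknown.

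Pairs were built from systematic names. Gene names came from the file or from the RefSeq table of R64, in which 1835 of 1886 members (97.3%) were found, and whose gene ends hold no untranslated regions. The pair members followed from names alone, but the rule and the gene lists were chosen with earlier results of these data known. One name was removed from the ribosomal protein list afterwards, since RPP1 is a gene of RNase P. The classes by length, gap, features between, own score and chromosome were chosen after the scores were seen, and more were looked at than are described. Pairs were named by rule: the 6 lowest and 6 highest means, the 6 largest differences each way, the 4 closest pairs below -0.5 and above 0.5, and up to 6 pairs per list with the lowest means, while further list members are given as examples chosen after their values were seen. With 1 score per gene, values are descriptions without p-values. Intervals are 95% Wilson intervals for shares and Newcombe intervals for their differences, and they cover counting of genes or pairs only.

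The functions were tested on simulated scores first. Tables were computed in Python 3.11.15 with pandas 2.3.3, numpy 2.4.6 and scipy 1.17.1, and plots were drawn with matplotlib 3.10.9.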

Additional observations from a re-analysis of the deposited data

How the results depend on the processing

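A value was taken as moved where an alternative lay outside its 95% interval over pairs (order statistics for medians, Fisher's z for rho, Wilson for shares). The median score of the members, -0.0191, was 0.0077 where both genes had at least 1000 bp, and the mean in its place was -0.0439. The median absolute difference, 0.405, was 0.329 where both genes had at least 1000 bp. For numbers that differ by 2 or 3, rho was 8.39e-05 and 0.0187 and the same-side share 50.1% and 48.9%, as other genes are then paired. The cause was not tested for the length alternative. The same-side share of convergent minus divergent pairs, 1.98 points, was -2.19 with both genes of at least 1000 bp, inside its interval. The other alternatives stayed inside the intervals: without ribosomal protein genes, without unnamed genes, without the 8 most distal genes of an arm, with no feature between, and with ranks within 10 length classes. For the 3′ and 5′ neighbours the alternatives were added after the data were seen. Leaving out a replicate was not run, since a gene has 1 score. No paired analysis was possible because all samples belong to 1 strain and the scores carry no replicate number.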

Other observations

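The coding regions of 7 convergent pairs overlap in the R64 gene table, and these pairs were singled out after their values were seen. The W gene had the higher score in each of them, beside 51.7% of all convergent pairs. NET1 (YJL076W, a nucleolar anchor of the phosphatase Cdc14, 0.0004) stood above APQ13 (YJL075C, -0.656), SMD1 (YGR074W, a core protein of spliceosomal snRNPs, -0.23) above PRP38 (YGR075C, a splicing factor, -1.52), and VPS75 (YNL246W, a histone chaperone that works with Rtt109, 0.176) above CWC25 (YNL245C, a splicing factor, -0.29). VPS38 (-0.331) and DCR2 (-0.453) differed by 0.122, and YML096W (-0.184) and RAD10 (-0.234), a nuclease subunit of excision repair, by 0.0502. The remaining pairs were YJR079W (-0.37) with AIM24 (-1.35) and the glutaredoxin gene GRX6 (-0.334) with YDL009C (-0.626).

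In 22 convergent pairs at least 1 tRNA gene is annotated between both genes. Their members had a median score of -0.217, and 17 of the pairs (77.3%, 95% Wilson interval 56.6% to 89.9%) lay on the same side of the median of all genes, beside 54.7% of all convergent pairs. Within these 22 pairs rho was 0.213, beside 0.147 over all convergent pairs. In the 26 pairs with a protein-coding gene between, the median was 0.0425, rho was 0.48 and 65.4% (46.2% to 80.6%) lay on the same side. These small sets were noticed in the data and were not tested.

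By chromosome, rho within convergent pairs was above 0 on 13 of 16 chromosomes. It ran from -0.714 on chromosome I, which has 8 pairs, to 0.405 on chromosome V, which has 39. The median score of the members lay between -0.0968 on chromosome XVI and 0.23 on chromosome III. The share of pairs on the same side of the median was 37.5% on chromosomes I and XI and 65.8% on chromosome IX.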
